A study of Rattus norvegicus with 88 samples.

Results

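The miRNAs described here are the leukocyte and inflammation miRNAs of the liver, chosen by name as a list of 6: rno-miR-150, rno-miR-223, rno-miR-142-3p, rno-miR-142-5p, rno-miR-146a and rno-miR-155. Of these, 5 are named among the 677 rat miRNAs of the arrays and all 5 belong to the 314 that were detected on 1 or more of the 88 arrays, while rno-miR-155 was not analysed here. The species prefix is left out below. Each array held labelled total RNA from a small portion of the ground liver of 1 untreated F344 rat, an inbred Fischer strain, and the ages were 2 weeks (called young), 5, 6, 8, 15 and 21 weeks (adult), and 52, 78 and 104 weeks (old). Every group of age and sex had 5 animals except males of 5 and of 104 weeks, which had 4, so that 45 females and 43 males were measured. No group received a treatment or carried a modified allele, estrous cycles were not synchronized, and each liver was a mixture of all its cell types. The question was how hepatic miRNA levels differ with age and between the sexes, which is asked here of these 5 miRNAs.

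A microRNA pairs with messenger RNAs mainly through its seed, the bases that follow its first base, and lowers their translation and stability. The miRNAs of this list are best known from blood and immune cells: miR-150 is abundant in mature B and T lymphocytes, miR-223 in neutrophils, monocytes and macrophages, and both arms of the mir-142 hairpin in nearly all blood cell lineages. miR-146a is induced by Toll-like receptor and NF-kappa-B signalling and dampens it by acting on the adaptors Traf6 and Irak1. In liver these cells include the resident macrophages (Kupffer cells), lymphocytes, passing granulocytes and blood held in the sinusoids. In whole tissue, fewer cells of a type and less of its RNA per cell cannot be told apart.

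The mature sequences are shown because the seed sets which messenger RNAs a miRNA can pair with. RefSeq entries on the GRCr8 assembly were matched for 4 of the 5 by name, all but miR-150, and miR-146b is added because it shares the seed of miR-146a. Capitals mark the seed, bases 2 to 8, and each sequence reads 5′ to 3′.
miR-223: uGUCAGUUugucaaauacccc
miR-142-3p: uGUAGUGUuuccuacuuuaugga
miR-142-5p: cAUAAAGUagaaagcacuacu
miR-146a: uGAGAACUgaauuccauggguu
miR-146b: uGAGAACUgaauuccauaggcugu
miR-223 lies at chrX:65151450-65151470 on the plus strand, inside a long non-coding RNA gene and 2930 bases from Vsig4. miR-142-5p lies at chr10:73055119-73055139 and miR-142-3p at chr10:73055155-73055177, both on the plus strand and within the bounds of the protein-coding gene Tspoap1, with the myeloperoxidase gene Mpo 36934 bases away. miR-146a lies at chr10:28350053-28350074 on the minus strand, inside a long non-coding RNA gene, and miR-146b at chr1:255144874-255144897 on the plus strand. No seed was shared among the 4 matched members, whereas miR-146a and miR-146b were identical over their first 17 bases and differed at 2 positions over their common length. Whether the probes for one of them also bound the other was not tested.

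Both arms of mir-142 come from 1 hairpin of 87 bases at chr10:73055104-73055190, shown with the 2 arms in capitals because both are cut from the same transcript and their ratio is followed further on.
mir-142 hairpin: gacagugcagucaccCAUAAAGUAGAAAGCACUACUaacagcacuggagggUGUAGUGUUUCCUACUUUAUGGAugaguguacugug

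All 5 miRNAs were detected on every one of the 88 arrays, so no value of these 5 was filled in. Values are normalized intensities, that is, the total gene signal of a miRNA divided by the 75th percentile of the 314 expressed miRNAs of the same array, and a value of 1 is therefore that percentile. The miRNAs were read by 2 probes each, and since probes differ in brightness, the level of one miRNA is not compared with that of another. Differences are on the log2 scale and were tested with limma on all 314 miRNAs with Benjamini-Hochberg adjustment. A miRNA is named as called where its adjusted p was under 0.05 and its difference at least 1.5-fold. The labels state that the animals were independent and that they shared cages in pairs, without saying which, and the number of arrays limits the precision.

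Between 134 and 255 miRNAs were detected per array, the 75th percentile ranged from 28.1 to 289, and the arrays were scanned in 5 sessions of 1, 13, 30, 28 and 16 arrays, each of the larger ones holding several groups. The labelled tissue was checked by the hepatocyte miRNAs miR-122, miR-192 and miR-194, which were detected on all 88 arrays.

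All 5 miRNAs differed with age in both sexes, with the lowest mean at 2 weeks in each case. The highest mean was at 104 weeks for both arms of mir-142 and miR-146a in both sexes and for miR-223 in females, at 78 weeks for miR-223 in males, and at 6 and 8 weeks for miR-150 in females and males. By limma's F test over the 9 ages followed by the 36 pairs of ages, 5 of 5 were called in females, where 57.3% of all expressed miRNAs were called, and 5 of 5 in males, where 54.1% were. In females the count was 3 with the percentile over miRNAs detected on all arrays and 2 with normexp background correction followed by quantile normalization. The share of all miRNAs called is not given for these 2 settings. The adjusted p of the F test in females lay between 4.28e-09 for miR-146a and 0.00265 for miR-150, and in males between 6.70e-12 for miR-146a and 2.46e-07 for miR-142-5p. The number of pairs of ages called in females was 14 for miR-142-3p, 11 for miR-142-5p, 10 for miR-146a, 8 for miR-150 and 6 for miR-223. In males the numbers were 15 for miR-142-3p, 11 for miR-142-5p, 10 for miR-146a, 12 for miR-150 and 13 for miR-223. The pairs that held 2 weeks numbered between 3 for miR-223 and 8 for each arm of mir-142 in females, and 7 or 8 in males. In all of them the level was lower at 2 weeks, a direction that for some members turned under another scaling of the arrays, as described below.

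**Figure D1:**
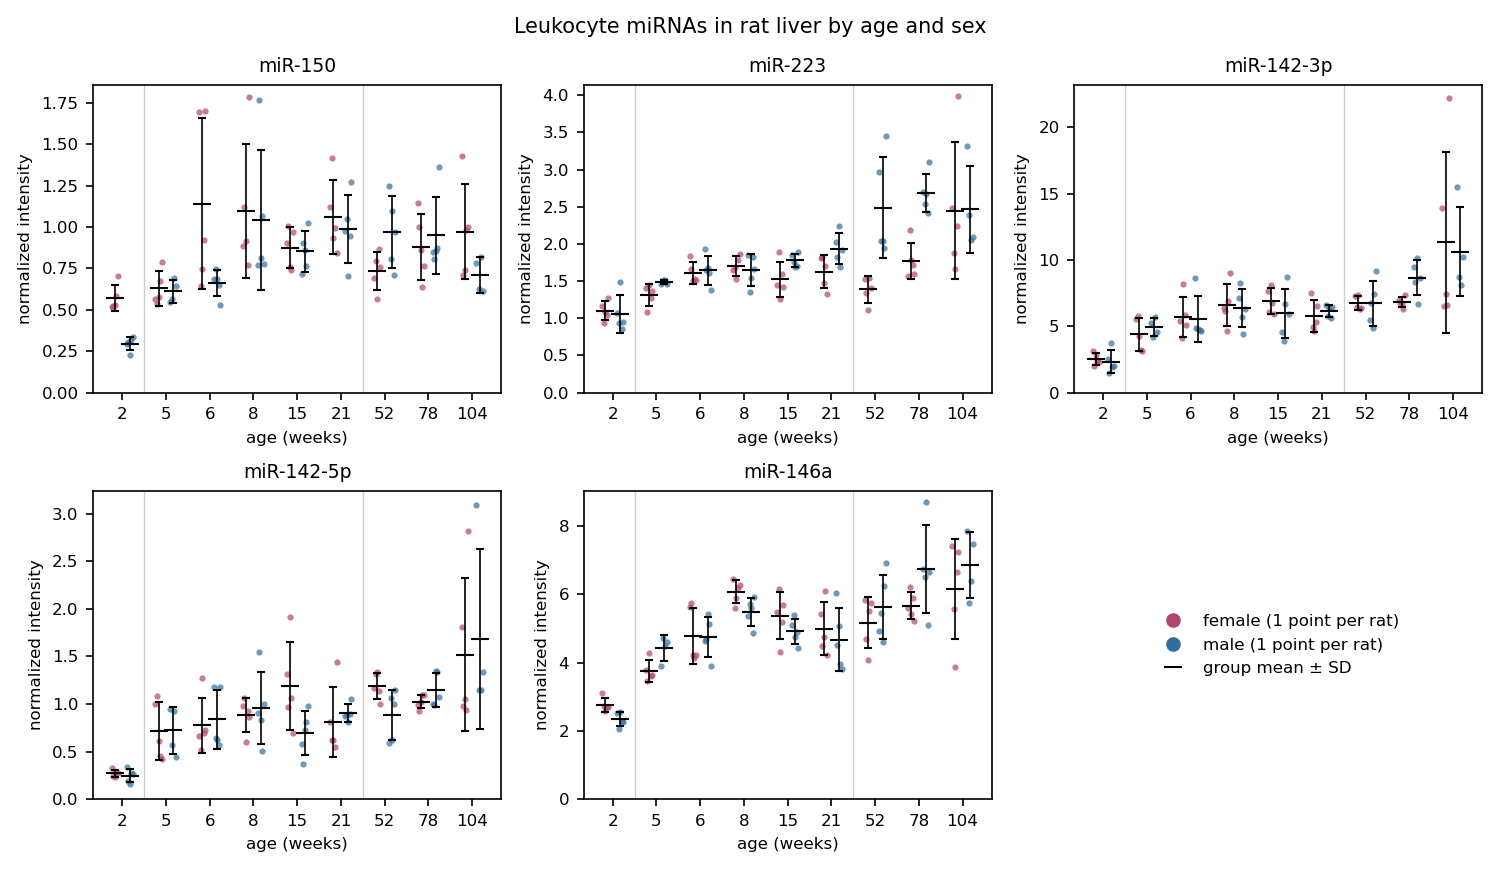
Normalized intensity (linear scale from 0, no unit) of 5 leukocyte miRNAs against age in weeks, with 1 point per rat and bars at the group mean ± SD (n = 5, or 4 for males of 5 and 104 weeks). All 5 were lowest at 2 weeks under this scaling, and 3 single livers of 104 weeks (2 females and 1 male) had the highest values of miR-142-3p, at 13.9, 22.2 and 15.5, while no adult liver exceeded 9.03.

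miR-150, the lymphocyte miRNA, had its lowest mean at 2 weeks in both sexes, its highest at 6 weeks in females and at 8 weeks in males, and wide SDs in females of 6 and 8 weeks and males of 8 weeks. Its mean normalized intensity in females was 0.572 ± 0.0795 at 2 weeks, 0.629 ± 0.104 at 5, 1.14 ± 0.519 at 6, 1.10 ± 0.405 at 8, 0.877 ± 0.122 at 15, 1.06 ± 0.223 at 21, 0.736 ± 0.115 at 52, 0.882 ± 0.199 at 78 and 0.973 ± 0.288 at 104 weeks (SD, n = 5). In males it was 0.297 ± 0.0421 at 2 weeks, 0.612 ± 0.0696 at 5, 0.661 ± 0.0802 at 6, 1.04 ± 0.424 at 8, 0.855 ± 0.123 at 15, 0.990 ± 0.205 at 21, 0.968 ± 0.217 at 52, 0.951 ± 0.232 at 78 and 0.711 ± 0.107 at 104 weeks (SD, n = 4 or 5). The wide SDs came from single livers. Females 1 and 6 of 6 weeks were both at 1.70, above the other 3 of their group, and 8-week female 6 at 1.78 and 8-week male 2 at 1.77 were the highest of their groups. Beyond 2 weeks, the called pairs in females were 8 weeks and 21 weeks against 5 weeks, at 0.75 in each case on the log2 scale. In males 8, 21, 52 and 78 weeks were above 5 weeks, by 0.61 to 0.70. In the order of mean levels, no neighbouring ages differed by a call in females, and in males the 2 lowest, 2 and 5 weeks, did.

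miR-223, the myeloid miRNA, had its highest means at 78 and 104 weeks in females and at 52, 78 and 104 weeks in males. In females its mean was 1.10 ± 0.124 at 2 weeks, 1.32 ± 0.148 at 5, 1.61 ± 0.146 at 6, 1.70 ± 0.129 at 8, 1.52 ± 0.237 at 15, 1.63 ± 0.217 at 21, 1.39 ± 0.178 at 52, 1.77 ± 0.247 at 78 and 2.45 ± 0.915 at 104 weeks (SD, n = 5). In males it was 1.06 ± 0.252 at 2 weeks, 1.49 ± 0.0286 at 5, 1.65 ± 0.196 at 6, 1.65 ± 0.209 at 8, 1.78 ± 0.0865 at 15, 1.94 ± 0.211 at 21, 2.49 ± 0.679 at 52, 2.68 ± 0.255 at 78 and 2.46 ± 0.592 at 104 weeks (SD, n = 4 or 5). The mean log2 levels of the 5 adult male groups lay in the order of their age, with no neighbours in that order apart by a call. Among later ages, 78-week males were above males of 5, 6, 8 and 15 weeks by 0.59 to 0.85 on the log2 scale with adjusted p between 6.04e-05 and 0.0209. In females 104 weeks was above 5, 15 and 52 weeks, by 0.83, 0.63 and 0.76.

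The arms of mir-142, the hairpin shown above, had the widest range of the 5. Mean miR-142-3p in females was 2.54 ± 0.448 at 2 weeks, 4.38 ± 1.25 at 5, 5.71 ± 1.52 at 6, 6.63 ± 1.59 at 8, 6.90 ± 0.964 at 15, 5.79 ± 1.20 at 21, 6.76 ± 0.521 at 52, 6.80 ± 0.382 at 78 and 11.3 ± 6.81 at 104 weeks (SD, n = 5). In males it was 2.34 ± 0.856 at 2 weeks, 4.93 ± 0.667 at 5, 5.52 ± 1.72 at 6, 6.37 ± 1.45 at 8, 5.96 ± 1.88 at 15, 6.16 ± 0.448 at 21, 6.72 ± 1.70 at 52, 8.65 ± 1.32 at 78 and 10.6 ± 3.36 at 104 weeks (SD, n = 4 or 5). Among the ages from 6 to 78 weeks no pair was called in females, and the wide SD at 104 weeks came from single livers described below. miR-142-5p also had its lowest mean at 2 weeks and its highest at 104, with means in females from 0.270 ± 0.0373 at 2 weeks (SD, n = 5) to 1.52 ± 0.808 at 104 weeks (SD, n = 5), and in males from 0.248 ± 0.0713 (SD, n = 5) to 1.68 ± 0.946 (SD, n = 4). At the ages from 5 to 78 weeks its means lay between 0.714 and 1.19 in females and between 0.692 and 1.15 in males. For both arms and both sexes 2 and 5 weeks were apart by a call, and in the order of levels no other neighbouring ages were, except 2 and 15 weeks for miR-142-5p in males.

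miR-146a, the inflammation-induced miRNA, had the smallest spread within groups. Its means in females were 2.76 ± 0.199 at 2 weeks, 3.75 ± 0.323 at 5, 4.79 ± 0.814 at 6, 6.08 ± 0.342 at 8, 5.37 ± 0.691 at 15, 5.00 ± 0.767 at 21, 5.17 ± 0.754 at 52, 5.67 ± 0.387 at 78 and 6.14 ± 1.47 at 104 weeks (SD, n = 5). In males they were 2.34 ± 0.202 at 2 weeks, 4.42 ± 0.373 at 5, 4.75 ± 0.582 at 6, 5.49 ± 0.403 at 8, 4.91 ± 0.370 at 15, 4.67 ± 0.910 at 21, 5.63 ± 0.945 at 52, 6.74 ± 1.28 at 78 and 6.86 ± 0.975 at 104 weeks (SD, n = 4 or 5). Both sexes had a local high at 8 weeks, which in females was above 5 weeks by 0.70 on the log2 scale with an adjusted p of 2.23e-04, and 78-week livers were above 5-week livers in females by 0.60 and in males by 0.59. The pooled within-group SD on the log2 scale was 0.20 for miR-146a, 0.23 for miR-223, 0.33 for miR-150, 0.36 for miR-142-3p and 0.47 for miR-142-5p.

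The step from 2 weeks to the adult ages was upward for all 5 miRNAs under the main scaling, but its size, and for miR-223 and miR-146a its sign, depended on the scaling. In females 4 of 5 were called as higher in adults, where 24.2% of all miRNAs were, and in males 5 of 5, where 29.6% were. miR-150 at 2 weeks was 0.518, 0.522, 0.530, 0.584 and 0.706 in females and 0.295, 0.307, 0.226, 0.320 and 0.335 in males. Adult livers ran from 0.534 over a median of 0.904 to 1.78 in 25 females, and from 0.532 over a median of 0.768 to 1.77 in 24 males. The male groups did not overlap, and the female groups overlapped only through 2-week females 5 and 6. No share of all miRNAs without overlap is given for this step. The log2 difference was 0.68 (SE 0.18, adjusted p 0.0012) in females and 1.44 (SE 0.14, adjusted p 3.67e-11) in males.

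miR-142-5p differed most, by 1.61 (SE 0.22) in females and 1.71 (SE 0.23) in males, while miR-142-3p stood at 1.18 (SE 0.18) and 1.34 (SE 0.17) and miR-146a at 0.83 (SE 0.10) and 1.04 (SE 0.096). The values of miR-142-5p at 2 weeks, 0.232 to 0.324 in females and 0.159 to 0.340 in males, lay below all adult livers, whose lowest were 0.426 and 0.373. The same held for miR-146a, at 2.58 to 3.10 in young and at least 3.45 in adult females, and at 2.07 to 2.56 in young and at least 3.80 in adult males. miR-223 differed by 0.49 (SE 0.11, adjusted p 2.75e-04) in females, short of 1.5-fold, and by 0.70 (SE 0.11, adjusted p 7.14e-07) in males. The median difference over the 5 was 0.83 in females and 1.34 in males, against 0.13 over all miRNAs in each sex. All miRNAs include those held at the floor where undetected. Over the miRNAs detected on at least 44 arrays the median difference was 0.52 in females and 0.82 in males.

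With the array divided instead by the 75th percentile of the 103 miRNAs detected on every array, 1 of 5 was called in each sex, miR-142-5p at 0.94 in females and 0.61 in males. Under that scaling miR-150 stood at 0.01 and 0.35, miR-223 at -0.17 and -0.39, miR-142-3p at 0.51 and 0.24, and miR-146a at 0.17 and -0.05, in females and males. With the percentile over all miRNAs of the array the differences ran from 1.26 to 2.37 in females and from 1.88 to 2.88 in males. These scalings moved the median difference of all miRNAs to -0.05 and -0.26 in the first case and to 0.57 and 0.65 in the second, in females and males. With quantile normalization between arrays the calls of miR-146a were lost (0.11 and 0.17), and with normexp background correction followed by quantile normalization 0 of 5 were called in either sex, with differences of 0.17 to 0.53. For all these settings the share of all miRNAs called is not given. Within each of the 3 scans that held both ages, all 5 differences were above 0 in both sexes under the main scaling.

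**Figure D2:**
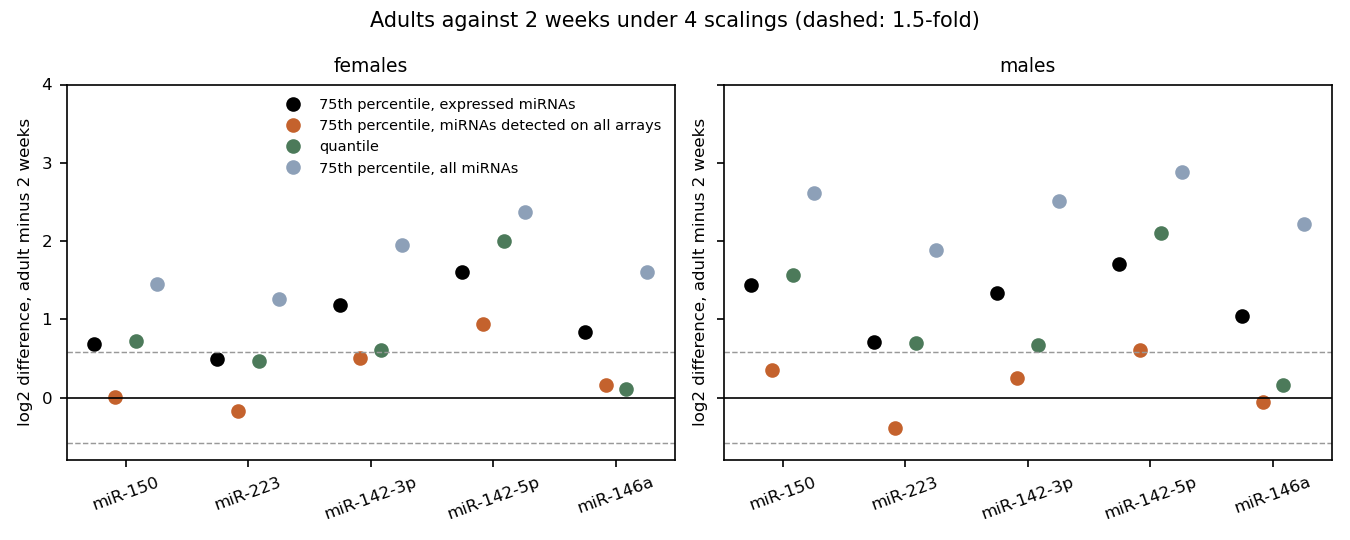
Log2 difference of adult (5 to 21 weeks) minus 2-week livers for each miRNA in females and males, with 1 point for each of 4 ways of scaling an array and dashed lines at 1.5-fold. With the miRNAs detected on all arrays as the reference (orange), miR-223 was at -0.17 and -0.39, miR-146a at 0.17 and -0.05 and miR-142-5p at 0.94 and 0.61 (females and males), while the other scalings placed every point above 0.

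The erythroid and hepatocyte lists were also higher in adults under the main scaling, and their part in the step was not tested. Both erythroid miRNAs tested, miR-451 and miR-144, were higher in adults, by 0.68 and 1.55 in females and by 1.20 and 1.33 in males, and their summed level ran from 3.29 to 5.64 in young and 4.17 to 19.1 in adult females and from 3.18 to 6.26 in young and 7.14 to 21.1 in adult males. The hepatocyte miRNAs miR-122, miR-192 and miR-194 were higher in 3 of 3 cases in both sexes, with sums of 560 to 674 in young and 653 to 1289 in adult females and of 399 to 429 in young and 634 to 1272 in adult males. Of 5 biliary miRNAs 3 were lower in adult females, miR-200a (-0.73), miR-200b (-1.39) and miR-429, and none was called in males. The endothelial miR-126* at 0.59 and the mesenchymal miR-143 at 0.72 were called higher in adult males, and miR-499 of the muscle list in adult females. Other leukocyte and inflammation miRNAs, a list of 15 of which 10 were tested, gave 1 higher and 1 lower in each sex. The higher one was miR-21, an miRNA raised in many inflamed and growing tissues, at 1.27 in females and 2.52 in males. The lower one was miR-181c, known from lymphocyte development, which was detected on 11 arrays and has no fold here. The median of the 10 was -0.14 in both sexes, against 0.13 over all miRNAs. Both medians include miRNAs that were undetected on many arrays and held at the floor there.

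From adult to old, no member reached both thresholds in either sex, while the arms of mir-142 in both sexes and miR-223 and miR-146a in males passed by the adjusted p alone. In females 0 of 5 were called as higher, where 1.91% of all miRNAs were, and in males 0 of 5, where 4.46% were. By the adjusted p alone 2 of 5 were higher in old females, where 7.64% of all miRNAs were, and 4 of 5 in old males, where 8.28% were. In females these were miR-142-3p at 0.44 (SE 0.12, limma adjusted p 0.0082) and miR-142-5p at 0.54 (SE 0.15, adjusted p 0.0082), while miR-146a and miR-223 stood at 0.19 and 0.21, each with an adjusted p of 0.0551. In males they were miR-223 at 0.57 (SE 0.076, adjusted p 4.04e-07), miR-142-3p at 0.56 (SE 0.12, adjusted p 6.06e-04), miR-142-5p at 0.54 (SE 0.16, adjusted p 0.0134) and miR-146a at 0.39 (SE 0.066, adjusted p 2.45e-05). miR-150 stood at -0.11 (adjusted p 0.653) in females and 0.10 (adjusted p 0.739) in males.

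The single livers show the same shape. miR-223 in 24 adult males ran from 1.35 over a median of 1.69 to 2.24, and in 14 old males from 1.95 over 2.48 to 3.45. In 25 adult females it ran from 1.08 over 1.52 to 1.89, and in 15 old females from 1.11 over 1.66 to 3.99. The median old male thus lay above every adult male, whereas 4 of 15 old females lay above every adult female. Within the 4 scans that held both age classes, the male difference of miR-223 was between 0.48 and 0.64 and the female one between 0.10 and 0.36.

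The median over the 5 was 0.21 in females and 0.54 in males, against 0 over all miRNAs in both sexes. Over the miRNAs detected on at least 44 arrays it was 0.041 in females and 0.032 in males. In linear terms the male differences were 1.48-fold for miR-223, 1.47-fold for miR-142-3p and 1.46-fold for miR-142-5p, so that the count of 0 turned on small shifts. Leaving out 1 of 10 male arrays in turn (15-week male 4, 6-week male 1, 52-week males 1, 5, 6 and 7, 78-week male 5 and 104-week males 3, 4 and 5) brought 1 to 3 of them past 1.5-fold, with values of at most 0.60. In females the same happened to miR-142-5p, at 0.59 each, without 104-week female 7 or 21-week female 6.

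Taken age by age, the called differences lay at 78 weeks in males and at 104 weeks in both sexes. The 3 old ages were compared with the same adult arrays, so their values are set side by side only. At 52 weeks 0 of 5 were called in females, where 4.46% of all miRNAs were higher, and 0 of 5 in males, where 3.18% were. miR-223 in 52-week males stood at 0.52 with an adjusted p of 0.0010, short of 1.5-fold. At 78 weeks 0 of 5 were called in females, where 4.14% were, and 2 of 5 in males, where 3.5% were. These were miR-223 at 0.66 (SE 0.11, adjusted p 3.22e-05) and miR-142-3p at 0.60 (SE 0.17, adjusted p 0.0196). The miR-142-3p value sat at the fold threshold, and leaving out any of 5 male arrays (15-week 2, 8-week 5 and 78-week 2, 4 and 6) took its call away, with values of 0.54 to 0.60. Both calls were also lost with quantile normalization (0.48 and 0.54), with normexp followed by it (0.36 and 0.40) and with the percentile over all miRNAs (adjusted p 0.401 and 0.822).

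At 104 weeks 3 of 5 were called in females, where 3.5% were, and 2 of 5 in males, where 6.37% were. In females miR-142-3p stood at 0.81 (SE 0.18, adjusted p 0.0023), miR-142-5p at 0.75 (SE 0.22, adjusted p 0.0234) and miR-223 at 0.60 (SE 0.11, adjusted p 3.17e-04). In males miR-142-3p stood at 0.86 (SE 0.19, adjusted p 0.0013) and miR-142-5p at 0.97 (SE 0.25, adjusted p 0.0077), while miR-146a at 0.50 and miR-223 at 0.52 were short of 1.5-fold. With the percentile over all miRNAs only miR-142-3p in females kept its call, and with normexp followed by quantile normalization only miR-142-3p, in both sexes, did. The call of miR-223 in females was also lost with quantile normalization (0.55), and that of miR-142-5p in females with the percentile over miRNAs detected on all arrays (adjusted p 0.0677). miR-150 was at 0.05 in females and -0.18 in males.

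**Figure D3:**
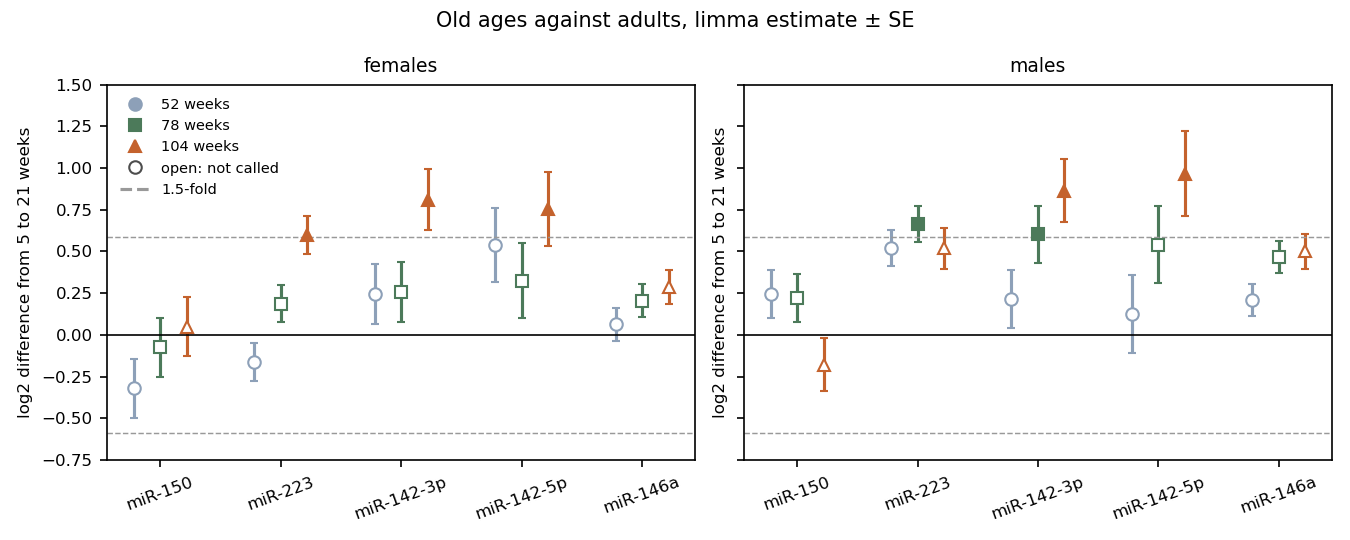
Log2 difference of 52-, 78- and 104-week livers from the adult livers (5 to 21 weeks) of the same sex, as limma estimates with bars of ± 1 SE; filled symbols are called, dashed lines mark 1.5-fold, and the 3 ages share their adult arrays. Filled symbols appear at 78 weeks in males only for miR-223 and miR-142-3p, and at 104 weeks in both sexes for the arms of mir-142 and in females for miR-223, while miR-150 stayed between -0.32 and 0.25.

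The differences at 104 weeks moved with 3 livers. miR-142-3p at 104 weeks was 13.9, 6.49, 7.45, 6.60 and 22.2 in females 1, 2, 5, 7 and 8, and 15.5, 8.71, 8.11 and 10.2 in males 2, 3, 4 and 5. Females 1 and 8 and male 2 stood above all adult livers of their sex, whose highest were 9.03 and 8.68, as did males 3 and 5, so that 3 of 4 males exceeded every adult male. The other 3 females lay within the adult range. miR-142-5p was 1.81 and 2.82 in females 1 and 8 against 0.932 to 1.06 in the other 3, and 3.09 in male 2 against 1.14 to 1.34.

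Other miRNAs of these 3 livers differed as well. miR-223 was 2.48 and 3.99 in females 1 and 8 against 1.66 to 2.24 in the others, and 3.32 in male 2 against 2.05 to 2.39. miR-342-3p, a lymphoid and myeloid miRNA of the second leukocyte list, was 2.50 and 1.35 in females 1 and 8 against 0.423 to 0.681, and 0.868 in male 2 against 0.609 to 0.706. miR-150 was 1.43 and 1 in females 1 and 8 against 0.712 to 0.984, whereas male 2 at 0.785 lay within its group. The hepatocyte miRNA miR-122 was lower in all 3, at 655 and 681 in the females against 985 to 1146, and at 640 in male 2 against 851 to 919. miR-451 of red blood cells was 11.1 and 6.04 in the females against 9.64 to 14.5, and 8.05 in male 2 against 10.5 to 13.4, so that it was not raised in any of them. Female 8 also had 320 for miR-21 against 104 to 115 in the other 3. miR-181a of the second leukocyte list was 0.669 and 0.738 in females 1 and 8 against 0.388 to 0.694. In male 2 it was 0.661 against 0.506 to 0.611. The summed level of the biliary miRNAs was 1.85 and 2.52 in females 1 and 8 against 0.414 to 1.45. In male 2 that sum was 4.64 against 1.85 to 3.25.

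Without these 3 livers, which were picked after their values were seen, no female call remained at 104 weeks: miR-142-3p stood at 0.26 (adjusted p 0.462), miR-142-5p at 0.28 (adjusted p 0.721) and miR-223 at 0.31 (adjusted p 0.0710). In males miR-142-3p stood at 0.67 (adjusted p 0.0376) and kept its call, and miR-142-5p at 0.63 (adjusted p 0.180) lost it. Female 8 alone decided the call of miR-142-3p, which fell to 0.52 without it (adjusted p 0.0511). The call of miR-142-5p was lost without female 1 (0.66, adjusted p 0.0963) or female 8 (0.49, adjusted p 0.241), and that of miR-223 without female 1 (0.58), female 8 (0.40), 21-week female 6 (0.58) or 5-week female 2 (0.58). In males miR-223 passed 1.5-fold at 104 weeks without male 4 (0.60) or male 5 (0.59).

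The other lists over these ages were as follows. Of the 10 further leukocyte miRNAs, none was called from adult to old in females and miR-146b, the seed partner of miR-146a, in males. It was detected in 4 of 24 adult and 11 of 14 old males, and in 11 of 25 adult and 11 of 15 old females, and because most adult values are at the detection floor no fold is given (adjusted p 1.70e-05 in males, with undetected values at that floor). At 104 weeks miR-342-3p was higher in females, by 0.74 (adjusted p 0.0423), and miR-146b in males. The miR-342-3p values outside females 1 and 8, 0.423 to 0.681, lay within the adult female range of 0.294 to 1.22. Among erythroid miRNAs miR-451 was higher at 104 weeks in females, by 0.65 (adjusted p 0.0177), with group values of 9.64 to 14.5 outside females 1 and 8. The 3 hepatocyte miRNAs gave no call over these ages, and the endothelial miR-126* stood at -0.67 at 104 weeks in males (adjusted p 0.0319). The summed erythroid level ran from 4.17 to 19.1 in adult and 6.45 to 17.5 in old females, and from 7.14 to 21.1 in adult and 7.41 to 28.0 in old males. The summed hepatocyte level ran from 653 to 1289 in adult and 691 to 1388 in old females, and from 634 to 1272 in adult and 685 to 1137 in old males. Among 5 biliary miRNAs miR-200b was lower in old livers of both sexes, at -0.63 and -0.78, none of the 5 stellate and mesenchymal miRNAs was called from adult to old, and the muscle miRNAs miR-1, miR-133b and miR-206 were lower in old females, where miR-1 was detected in 13 of 25 adult and 0 of 15 old livers. The part of these cell types in the values of the 5 leukocyte miRNAs was not tested.

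The ratio of miR-150 to miR-223 within an array does not depend on the divisor of that array, so it was followed as a measure free of the choice of percentile, though not of the background correction or of quantile normalization. Only its changes are read, not its level. From young to adult the log2 ratio changed by 0.75 in males, from -1.82 ± 0.529 (SD, n = 5) to -1.07 ± 0.406 (SD, n = 24), with an exact permutation p of 4.97e-04 (two-sided, adjusted p 9.94e-04 over the 4 comparisons). With normexp followed by quantile normalization it was 0.096 (p 0.233) and did not pass. In females it changed by 0.19, from -0.948 ± 0.149 (SD, n = 5) to -0.761 ± 0.384 (SD, n = 25), with an exact permutation p of 0.296. With arrays permuted within slides the female change was 0.47 (p 0.0417). Within the 3 scans that held both ages the change was above 0 in 3 of 3 in each sex, between 0.29 and 0.42 in females and between 0.40 and 0.74 in males. The difference between the sexes in this change was 0.56 and did not pass a permutation test (p 0.157).

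From adult to old the ratio fell in both sexes. In females it went to -1.08 ± 0.357 (SD, n = 15), a change of -0.32 with a permutation p of 0.0112 (adjusted p 0.0149), and 14 of 15 old females lay below the adult median. In males it went to -1.53 ± 0.323 (SD, n = 14), a change of -0.46 with a permutation p of 3.90e-04 (adjusted p 9.94e-04), and 13 of 14 old males lay below the adult median. The male and female changes differed by -0.14 (permutation p 0.444). Within the 4 scans that held both classes the change was below 0 in 4 of 4 in each sex, between -0.74 and -0.09 in females and between -0.70 and -0.34 in males. With normexp followed by quantile normalization the changes were -0.15 in females and -0.28 in males, and both passed. The female change no longer passed without the 104-week livers (-0.21, permutation p 0.123).

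**Figure D4:**
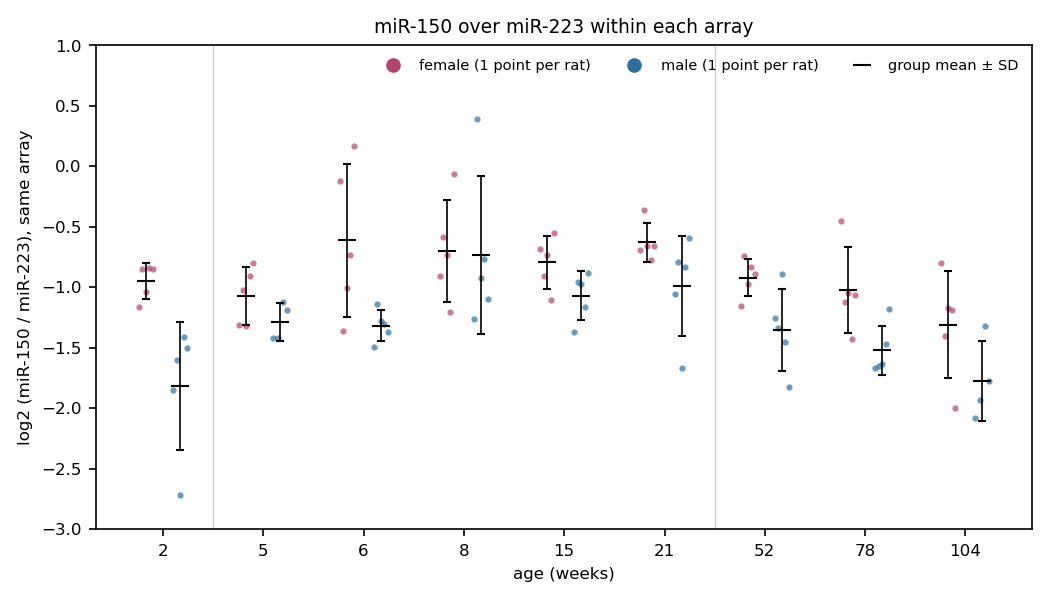
Log2 ratio of miR-150 to miR-223 within each array against age in weeks, with 1 point per rat and bars at the group mean ± SD (n = 5, or 4 for males of 5 and 104 weeks). Male means lay below female means at all 9 ages, and in both sexes the old groups (right of the second line) lay lower than most adult groups.

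Between the sexes, 2 of 5 members were called at 1 or more ages, where 37.3% of all miRNAs were. miR-150 was lower in males at 2 weeks, by -0.95 (SE 0.21, adjusted p 1.72e-04), as 1 of 5 members where 7.64% of all miRNAs were lower in males. The 5 male values, 0.226 to 0.335, lay below the 5 female values, 0.518 to 0.706, without overlap. With the miRNAs detected on all arrays as the reference the difference was -0.58 (adjusted p 0.0728), and with all miRNAs of the array -0.92 (adjusted p 0.291), and with normexp followed by quantile normalization -0.20, so its direction held and its call did not. In the 2 scans that held both sexes at this age the difference was -0.65 and -0.84, each from 1 male and 2 females. The 2-week males 1, 3 and 4 were in scan 3, which held no female of that age. With scan as a block the difference was -0.80 (limma adjusted p 7.71e-04). At this age miR-122 was also lower in males, by -0.63, as was miR-21, by -0.74, while no erythroid miRNA was called.

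The young-to-adult change of miR-150 differed between the sexes by 0.76 (SE 0.23, adjusted p 0.0074), as 1 of 5 members called for this interaction, where 21.7% of all miRNAs were called in either direction. The 2 other 75th percentile scalings gave 0.33 (adjusted p 0.425) and 1.17 (adjusted p 0.108), both short of the call, as was normexp followed by quantile normalization at 0.15 (adjusted p 0.173). From 5 weeks on the sexes overlapped for miR-150 at every age, with no call. The value nearest to one was at 6 weeks, at -0.68 (adjusted p 0.202), where females 1 and 6 were high.

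miR-223 was higher in males at 52 and 78 weeks, as 1 of 5 members at each, where 2.55% and 1.27% of all miRNAs were higher in males. At 52 weeks it was 2.97, 2.05, 2.04, 1.95 and 3.45 in males and 1.53, 1.33, 1.11, 1.55 and 1.41 in females, and at 78 weeks 2.69, 2.54, 2.67, 2.42 and 3.10 in males and 1.57, 2.18, 1.78, 1.72 and 1.59 in females. For miR-223 the sexes did not overlap at either age, and the share of all miRNAs without overlap is not given. The differences were 0.81 (SE 0.15, adjusted p 2.31e-05) and 0.61 (SE 0.15, adjusted p 0.0042), and at 78 weeks the call was lost without female 1 (0.57), female 5 (0.57) or male 6 (0.55), with slide as a random block (0.55), with quantile normalization (0.39, adjusted p 0.0915) and with the percentile over all miRNAs (adjusted p 0.161). With normexp followed by quantile normalization both calls were lost, at 0.42 and 0.33. At 104 weeks the difference was 0.05, with males at 3.32, 2.39, 2.05 and 2.09 and females at 2.48, 1.88, 1.66, 2.24 and 3.99. Within scans that held both sexes the difference was 0.40 and 1.26 at 52 weeks, and 0.72, 0.62 and 0.15 at 78 weeks, with 1 or 2 livers of each sex in a scan. Of the other lists, miR-21 was called higher in males at 52 weeks, by 0.62 (adjusted p 0.0101), and miR-145 of the mesenchymal list, detected on 31 of the 88 arrays, lower in males at 78 weeks, and their part in the miR-223 difference was not tested.

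The adult-to-old change of miR-223 was larger in males than in females by 0.36 (SE 0.11, adjusted p 0.0423), which is below 1.5-fold. No member was called for this interaction, against 1.91% of all miRNAs in either direction. miR-142-3p, miR-142-5p and miR-146a gave no sex difference that was called at any age, the value nearest to a call being that of miR-142-5p at 15 weeks (-0.77, adjusted p 0.0641). This depended on the processing, since with the percentile over all miRNAs 5 of 5 members were called at 1 or more ages, and 3 of 5 with the lowest detected intensity of each array as the floor, with only miRNAs detected on at least 44 arrays, or without the 104-week arrays. No share of all miRNAs called is given beside these counts. The within-array ratio of miR-150 to miR-223 was lower in males at all 9 ages by the means, but none of the 9 exact permutation tests passed adjustment, whereas 5 did with normexp followed by quantile normalization and 0 to 3 when 1 array was left out. At 2 weeks it differed by -0.87 without overlap (exact p 0.00794, the smallest that 5 against 5 allows, adjusted p 0.0714).

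The arms of mir-142 both rose from young to adult under the main scaling, and the size of the shift between them depended on the normalization. The log2 ratio of miR-142-3p to miR-142-5p was 3.23 ± 0.234 (SD, n = 5) in young and 2.80 ± 0.319 (SD, n = 25) in adult females, a change of -0.43 with an exact permutation p of 0.00883 (adjusted p 0.0353 over 4 comparisons). Without 2-week female 4 it was -0.33 (exact p 0.0515), with quantile normalization -1.40 (p 7.02e-06), and with normexp followed by quantile normalization 0.065 (p 0.483), so the sign itself turned. In males it went from 3.22 ± 0.743 (SD, n = 5) to 2.85 ± 0.331 (SD, n = 24), a change of -0.37 with an exact permutation p of 0.0980, and with quantile normalization it was -1.43 (p 8.42e-06) and with normexp followed by it 0.11 (p 0.310), so the sign turned there too. From adult to old the ratio changed by -0.10 in females (permutation p 0.274) and by 0.02 in males (p 0.825).

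Between single animals, the 5 miRNAs did not move as 1 block under the main scaling, and this depended on the scaling. The deviation of each liver from the mean of its own age and sex group was taken over the 78 livers of 5 to 104 weeks, and 15 pairs were tested, those among the 5 members and each member with miR-451, by permutation with Benjamini-Hochberg adjustment. The points share the scaling of their array, and with the 2 other percentile scalings 13 and 15 pairs passed in place of 5. The arms of mir-142 went together most closely, with r = 0.80 and rho = 0.81 (adjusted p 7.50e-05 for each), r = 0.78 without the 2 livers farthest from the median, and r between 0.69 and 0.92 within scans. miR-223 and miR-146a followed with r = 0.54 and rho = 0.51 (adjusted p 7.50e-05 for each), 0.51 without the 2 farthest, and 0.39 to 0.80 within scans.

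miR-150 and miR-223 had r = 0.28 (adjusted p 0.0397) and rho = 0.35 (adjusted p 0.00735), 0.35 without the 2 farthest, and 0.10 to 0.70 within scans. miR-223 and miR-142-3p had r = 0.37 (adjusted p 0.0045) but rho = 0.18 (adjusted p 0.226), and r = 0.18 without the 2 farthest, so this relation rested on those livers. miR-150 and the red cell miRNA miR-451 ran in opposite directions, with r = -0.34 (adjusted p 0.0084) and rho = -0.38 (adjusted p 0.0026), -0.36 without the 2 farthest, and 0.15, -0.60, -0.17 and -0.29 in scans 2 to 5, so that it did not hold in scan 2. Under the main scaling the other 10 pairs did not pass, among them miR-150 with miR-142-3p (r = 0.08) and with miR-146a (r = 0.11), and miR-142-5p with miR-146a (r = -0.05).

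**Figure D5:**
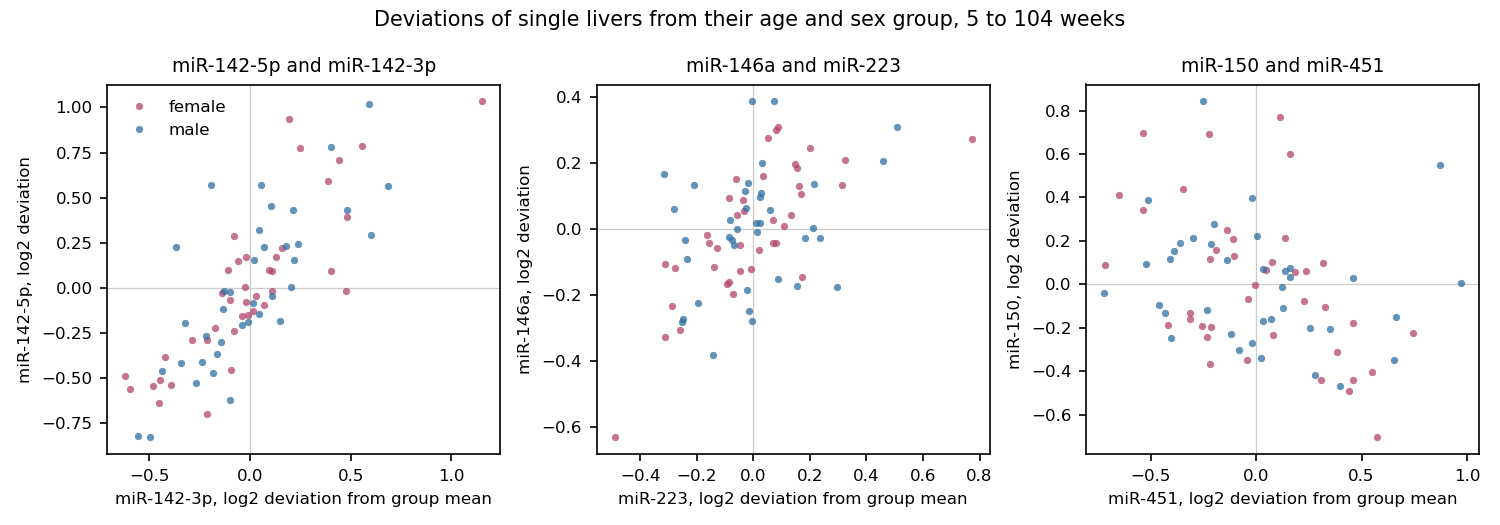
Deviation of single livers from the mean of their age and sex group (log2 scale, 78 livers of 5 to 104 weeks, 1 point per rat) for 3 pairs of miRNAs. Points of the mir-142 arms lie along a rising line (r = 0.80), those of miR-146a and miR-223 rise more loosely (r = 0.54), and those of miR-150 and miR-451 fall (r = -0.34).

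The miRNAs whose group means were most alike were listed for each member over the 16 groups of 5 to 104 weeks, among 171 miRNAs detected on at least 44 of the arrays, as a description without a test. For miR-142-3p they were miR-142-5p (r = 0.92), miR-146a (0.90) and miR-223 (0.76), and for miR-146a they were miR-142-3p (0.90), miR-142-5p (0.77) and miR-223 (0.74). For miR-142-5p they were miR-142-3p (0.92), miR-29b (0.79) and miR-146a (0.77). miR-223 had miR-125b-5p (0.78), miR-99a (0.77) and let-7c (0.77), and miR-150 had miR-30c (0.76), miR-23a (0.69) and miR-10b (0.65).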

How the data were processed

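Labelled RNA of each liver was measured on 1 single-colour rat miRNA array from Agilent. In the files the authors deposited, read with Feature Extraction 10.7.3.1 (submitters' processing notes), the total gene signal of each miRNA is a linear intensity with background subtracted, summed from 20 spots of 2 probes for each member. A deposited table of ratio values, the same signals divided by the array's 75th percentile, served as an alternative.

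Signals were divided by the 75th percentile of the 314 miRNAs detected on 1 or more arrays (rank 236), 0.0120, the lowest normalized value on any array, stood for undetected miRNAs, and all were log2-transformed. Of 15763 detected values 1 differed by over 0.01 percent from the deposited table. Groups of age and sex, taken from the labels, were compared in limma 3.58.1 (R 4.3.3) over all 314 miRNAs, at an adjusted p under 0.05 and at least 1.5-fold, within each sex for age and in 1 model for the sexes. On simulated data, 60 miRNAs were given a known change, and 53 (adult to old females, 1 false call) and 55 (males, 2 false calls) were recovered. Ratios and correlations were tested by permutation, exact or with 100000 resamples (20000 for interactions), in scipy 1.17.1 and numpy 2.4.6 (Python 3.11.15). Scans were parted where more than 8 hours lay between scan times, and slides numbered 13.

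The members were named in every comparison. Other miRNAs were named from lists of further leukocyte, erythroid, endothelial, hepatocyte, stellate, biliary and muscle miRNAs, at most 4 a list in list order among those called, and as the 3 with the most similar group means. Members and lists were chosen with earlier results of these data known. For the 3 high livers of 104 weeks, further miRNAs were named after their values were seen. Alternatives were other scalings and floors, quantile normalization, the mean processed signal, normexp (offset 50, on the median spot signal, since the files hold no mean signal, followed by quantile normalization) and the deposited table. The others were a filter on dim miRNAs, scan, slide and replicate blocks, the methods' t-test and leaving out arrays. Mature sequences and positions are from RefSeq (GRCr8).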

Additional observations from a re-analysis of the deposited data

Results flagged for a closer look

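A liver far from the others of its group was seen in 3 of 90 cases, each 1 miRNA in 1 group of 4 or 5 livers, so that the cases share livers, and chance alone gives about 1 in 20. For miR-150, 78-week male 6 had a normalized intensity of 1.36 against 0.810 to 0.873 in the other 4 males of that age. For miR-142-3p, 6-week male 1 had 8.60 against 4.67 to 4.84. For miR-142-5p, 104-week male 2 had 3.09 against 1.14 to 1.34, and it is one of the 3 livers of 104 weeks described above.

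By the adjusted p alone, a different change in the 2 sexes was seen for 2 members, 1 at each step. At the young-to-adult step 94 of all 314 miRNAs passed so and 21.7% were called. At the adult-to-old step 10 passed so and 1.91% were called. The young-to-adult change of miR-150 was larger in males by 0.76 on the log2 scale (limma adjusted p 0.0074), and the adult-to-old change of miR-223 was larger in males by 0.36 (limma adjusted p 0.0423). The first was not called under 2 other scalings of the arrays or with normexp followed by quantile normalization, as given above, and the second was below 1.5-fold.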

How the results depend on the processing

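The young-to-adult counts depended most on the scaling and the background correction. With the 75th percentile over miRNAs detected on all arrays 1 member was called in females and 1 in males, miR-223 stood at -0.17 in females and at -0.39 in males, miR-146a at -0.052 in males, 3 members were called by age in females, and 0 for the interaction of sex with age class. With the percentile over all miRNAs 1 member was called at an old age, 5 between the sexes and 0 for the interaction. With normexp, which was followed by quantile normalization and so changed both choices, 0 were called from young to adult in either sex, 2 by age in females, 1 at an old age, 0 between the sexes and 0 for the interaction, whereas 5 ages passed for the ratio of miR-150 to miR-223 between the sexes. For these counts of members the share of all miRNAs called under the same setting is not given. The 2 percentile scalings gave 13 and 15 associated pairs in place of 5. The cause was not tested.

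From adult to old in males 1 member was called with slide as a random block and 1 without the 104-week arrays. Leaving out 1 array gave 0 to 1 members in females and 0 to 3 in males. The young-to-adult ratio of miR-150 to miR-223 was 0.47 in females (p 0.0417) with arrays permuted within slides, and 0.096 in males (p 0.233) under normexp. Its adult-to-old change in females was -0.25 (p 0.0520) with the replicate number as a block and -0.21 (p 0.123) without the 104-week arrays. The block also took the 104-week calls of miR-223 (0.42) and miR-142-5p (0.73, adjusted p 0.118) in females and changed no other call. The numbers were not taken to pair animals, since over 103 miRNAs the mean correlation of deviations between arrays with the same number was 0.0532, against -0.00759 for different numbers, and 17 of 33 pairs of one age exceeded 0.1.

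The ratio of the arms of mir-142 from young to adult was 0.065 in females under normexp, which turned its sign, and -1.43 in males under quantile normalization (p 8.42e-06). From adult to old in males it was 0.13 under normexp (p 0.0260). Leaving out 1 array gave -0.47 to -0.33 for the arms in young to adult females and 0 to 3 ages for the ratio between the sexes. Alternatives on the ratios of the arms, on ratios between the sexes and on associations were chosen after the data were seen, and slide as a random block was not run for ratios. All 5 members were detected on 88 arrays, their margin over the background was not measured, and groups of 4 or 5 livers limit the precision.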
